A study of Mus musculus with 118 samples.

Results

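The genes described here encode the proteins of the cytosolic ribosome. They were taken as the protein-coding genes with a curated RefSeq transcript on mm10 whose symbol begins with Rpl or Rps directly followed by a digit, together with Rplp0, Rplp1, Rplp2 and Rpsa, and without the Rps6k kinase genes. This gave 91 of 21000 protein-coding genes. Of these, 77 are core subunit genes, 46 for the large (60S) and 31 for the small (40S) subunit. A further 9 are paralogs of core genes, and 5 match the symbol rule only (Rpl31-ps12, Rpl32l, Rpl34-ps1, Rps19bp1 and Rps23rg1). The members lie on 19 chromosomes.

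The series profiled mouse embryonic stem cells (ESCs) in 118 samples forming 42 groups, by cChIP-seq, a form of ChIP-seq calibrated with spiked-in chromatin of a second species. The values analyzed here were the deposited lists of enriched regions, or peaks, for RING1B, SUZ12 and PCGF2 in untreated cells. The PRC1CPM line (E14 strain, clone 41) carries I50A and D53K in both Ring1a alleles, Ring1b alleles (fl/fl) in which tamoxifen replaces the wild-type sequence with one encoding I53A and D56K, and ERT2-Cre expressed from Rosa26. The PRC1CKO line (E14, clone B9) is Ring1a-/- with Ring1bfl/fl and the same ERT2-Cre. Both lines therefore lack normal RING1A before any treatment, both keep wild-type RING1B until tamoxifen is given, and each is a single clone. Chromatin of human HEK293T cells was the internal standard for these antibodies. RING1B, SUZ12 and PCGF2 each had 3 untreated PRC1CPM samples, and SUZ12 had 3 untreated PRC1CKO samples as well. The lists hold 18643 RING1B, 7438 SUZ12 and 3680 PCGF2 peaks, each only as a position. They give no height, no value per replicate and no depth, so shares are printed with 95% Wilson intervals that cover counting error only and treat genes as independent, and no test was run.

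Each ribosome has a large subunit, which forms peptide bonds, and a small subunit, which reads the mRNA. Their proteins are made in matched amounts, and the genes are among the most strongly transcribed in any growing cell, from short promoters that mostly lie in CpG islands. Many of the transcripts begin with a run of pyrimidines, the 5′ terminal oligopyrimidine (TOP) tract, through which mTOR signaling sets their translation. Polycomb repressive complex 1 (PRC1), with RING1B as its usual catalytic subunit, ubiquitylates histone H2A. Polycomb repressive complex 2 (PRC2), with SUZ12 as a core subunit, methylates histone H3. PCGF2 belongs to canonical PRC1, which binds the PRC2 mark, whereas variant PRC1 complexes with other PCGF subunits do not need it. Both systems are best known for CpG islands of silent developmental genes.

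Promoter sequences of members at the extremes of the RING1B list are shown first, since the results below turn on CpG content and on where a peak starts. Each run holds the bases upstream of the transcription start site (TSS) in the direction of transcription, from the RefSeq genome GRCm38.p6 (mm10), with every CpG in capitals. Rps15 had the widest RING1B peak, Rpl7 a SUZ12 peak beside its RING1B peak, and Rpl21 the narrowest RING1B peak. Rps3a1 and Rps26 had the highest CpG content of the core members without RING1B. Rps4x had the lowest CpG content of any core member.
Rps15 (chr10:80292181-80292430, plus strand): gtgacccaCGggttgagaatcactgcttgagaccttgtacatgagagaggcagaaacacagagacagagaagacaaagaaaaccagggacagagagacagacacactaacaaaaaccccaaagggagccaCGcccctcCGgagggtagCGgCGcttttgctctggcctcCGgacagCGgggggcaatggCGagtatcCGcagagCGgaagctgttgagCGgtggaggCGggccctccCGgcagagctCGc
Rpl7 (chr1:16104434-16104683, minus strand): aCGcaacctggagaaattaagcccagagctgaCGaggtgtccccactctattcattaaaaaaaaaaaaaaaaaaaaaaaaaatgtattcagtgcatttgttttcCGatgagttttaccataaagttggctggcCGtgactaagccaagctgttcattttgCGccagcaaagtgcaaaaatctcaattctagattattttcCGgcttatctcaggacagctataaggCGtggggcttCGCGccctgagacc
Rpl21 (chr5:146832640-146832889, plus strand): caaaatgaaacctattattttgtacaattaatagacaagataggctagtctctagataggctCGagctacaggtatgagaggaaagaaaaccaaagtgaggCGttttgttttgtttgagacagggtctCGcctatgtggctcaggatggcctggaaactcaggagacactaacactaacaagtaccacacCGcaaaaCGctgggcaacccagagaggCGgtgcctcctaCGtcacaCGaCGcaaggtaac
Rps3a1 (chr3:86142669-86142918, minus strand): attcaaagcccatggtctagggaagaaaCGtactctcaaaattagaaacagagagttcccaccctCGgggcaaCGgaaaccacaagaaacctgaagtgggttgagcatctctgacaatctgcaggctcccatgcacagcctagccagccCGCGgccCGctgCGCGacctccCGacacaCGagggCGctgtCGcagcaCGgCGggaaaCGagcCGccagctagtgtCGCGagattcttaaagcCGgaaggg
Rps26 (chr10:128626507-128626756, minus strand): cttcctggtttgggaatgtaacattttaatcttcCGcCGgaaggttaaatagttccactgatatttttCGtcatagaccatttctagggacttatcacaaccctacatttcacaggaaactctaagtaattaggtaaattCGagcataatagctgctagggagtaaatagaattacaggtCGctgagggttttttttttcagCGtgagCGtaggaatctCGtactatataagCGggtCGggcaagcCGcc
Rps4x (chrX:102189392-102189641, minus strand): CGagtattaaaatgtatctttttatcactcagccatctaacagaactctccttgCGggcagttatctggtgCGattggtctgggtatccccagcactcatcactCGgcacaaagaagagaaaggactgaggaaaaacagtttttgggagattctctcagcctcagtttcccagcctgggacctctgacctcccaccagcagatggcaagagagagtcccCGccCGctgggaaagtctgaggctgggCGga
Rps3a1 had 19 CpGs in this stretch and Rps15 had 14, whereas Rpl21 and Rpl7 had 9 each. Of the others without RING1B, Rps26 had 11 and Rps4x had 7. CpG counts of the promoters shown with and without RING1B overlapped. These promoters were picked as extremes, some of them by CpG content, so this overlap does not describe the members at large.

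RING1B was found at most ribosomal protein genes, and SUZ12 and PCGF2 were nearly absent from them. A RING1B peak overlapped the window of 2500 bp on either side of a TSS at 59 of the 91 members, or 64.8% (95% Wilson interval 54.6 to 73.9%), against a background of 58.4% of all protein-coding genes. The background lies within the members' interval, and the order depended on narrow peaks: with peaks of at least 1 kb only, 42.9% of members and 45.6% of all protein-coding genes had RING1B. SUZ12 was present at 3 members, or 3.30% (1.13 to 9.25%), against 27.2% of all protein-coding genes, and this background lies far above the interval. PCGF2 was present at 0 of the 91 members (upper limit 4.05%), against 14.5% of all protein-coding genes. In all, 57 members had RING1B alone, 2 had RING1B with SUZ12, 1 had SUZ12 without RING1B and 31 had no peak of any list.

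**Figure D1:**
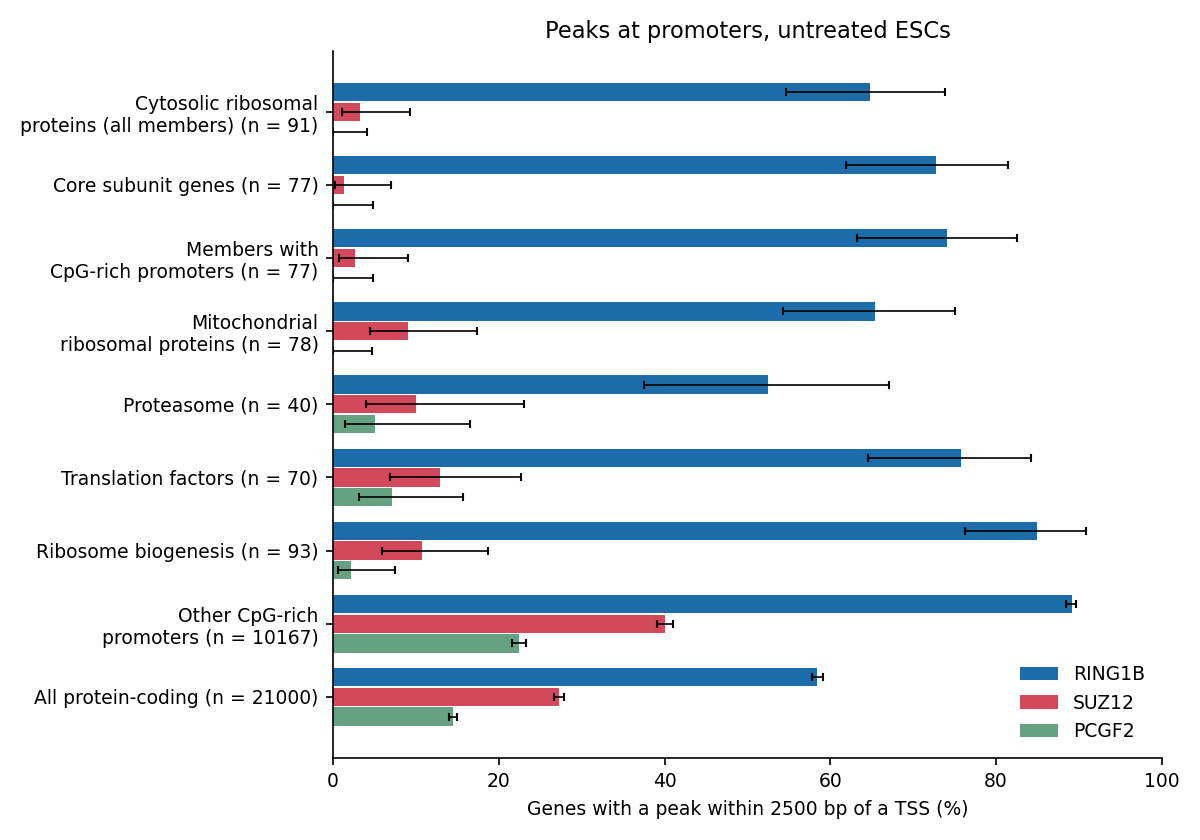
Share of genes with a RING1B, SUZ12 or PCGF2 peak within 2500 bp of a TSS, for the ribosomal protein genes, for other gene lists and for all protein-coding genes, with 95% Wilson intervals as error bars. RING1B reached 64.8% of the 91 members and 89.1% of other CpG-rich promoters, whereas PCGF2 was at 0% and 22.4% and SUZ12 was at 3.30% of the members.

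Nearly all RING1B-bound members were core subunit genes. RING1B was at 56 of the 77 core members, or 72.7% (61.9 to 81.4%), and at 3 of the 14 others. The intervals of the subunits overlapped, with 33 of 46 genes of the 60S subunit (71.7%, 57.5 to 82.7%) and 23 of 31 genes of the 40S subunit (74.2%, 56.8 to 86.3%). SUZ12 was at 1 core member, Rpl7 of the 60S subunit, and at 0 of the 31 genes of the 40S subunit.

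Among CpG-rich promoters, however, the RING1B share of ribosomal protein genes was below that of other genes. CpG-rich promoters were defined by a CpG observed/expected ratio of at least 0.6 and a GC content of at least 50% within 500 bp of the TSS, and 77 of the 91 members qualified. Of these 77, 57 had RING1B (74.0%, 63.3 to 82.5%), against a background of 89.0% of all 10244 CpG-rich promoters, which lies above that interval. SUZ12 was at 2 of the 77 (2.60%, 0.715 to 8.98%), against 39.8% of all CpG-rich promoters, and PCGF2 at 0 (upper limit 4.75%), against 22.2%. The same order held within bins of the CpG ratio, which do not match GC content. Median GC was 58.2% at CpG-rich members and 62.0% at other CpG-rich genes. Between ratios of 0.6 and 0.8, 21 of 31 core members (67.7%) had RING1B, against 84.9% of other protein-coding genes. Between 0.8 and 1, 34 of 43 core members (79.1%) had it, against 92.3% of other genes.

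Other gene groups of protein synthesis and turnover gave a range of RING1B shares. The genes of the mitochondrial ribosome, which is built from a separate set of nuclear-encoded proteins, had RING1B at 51 of 78 (65.4%), SUZ12 at 7 and PCGF2 at 0. Translation factor genes had RING1B at 53 of 70 (75.7%, 64.5 to 84.2%), and ribosome biogenesis genes at 79 of 93 (84.9%, 76.3 to 90.8%). Proteasome subunit genes, another large complex made in matched amounts, had it at 21 of 40 (52.5%, 37.5 to 67.1%). The interval of the cytosolic ribosomal protein genes overlaps that of the mitochondrial, translation factor and proteasome lists but not that of the biogenesis list. The interval of the core members alone, 61.9 to 81.4%, does overlap that of the biogenesis list. For SUZ12 the 3.30% of members compares with 8.97% of mitochondrial ribosomal protein genes, 12.9% of translation factors, 10.8% of biogenesis genes and 10.0% of proteasome genes, and all of these intervals overlap that of the members.

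RING1B peaks at ribosomal protein genes were narrow and sat on the TSS. Taking the widest peak at each gene, the median width at the 59 members was 1315 bp (95% order-statistic interval 1089 to 1415 bp), with quartiles of 834 and 1904 bp and a range of 468 to 7960 bp. At other CpG-rich genes with RING1B and no SUZ12 the median was 1253 bp, with quartiles of 870 and 1769 bp. At other CpG-rich genes with both RING1B and SUZ12 the median was 3340 bp, which is 2.54 times the members' median. The members' median stood at the 53.5th percentile of the RING1B peaks without SUZ12. Thus the members' widths lay in the middle of the class that lacks SUZ12. In all, 20 of the 59 peaks were at most 1000 bp wide, 39 were at most 1500 bp and 6 were over 3000 bp.

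**Figure D2:**
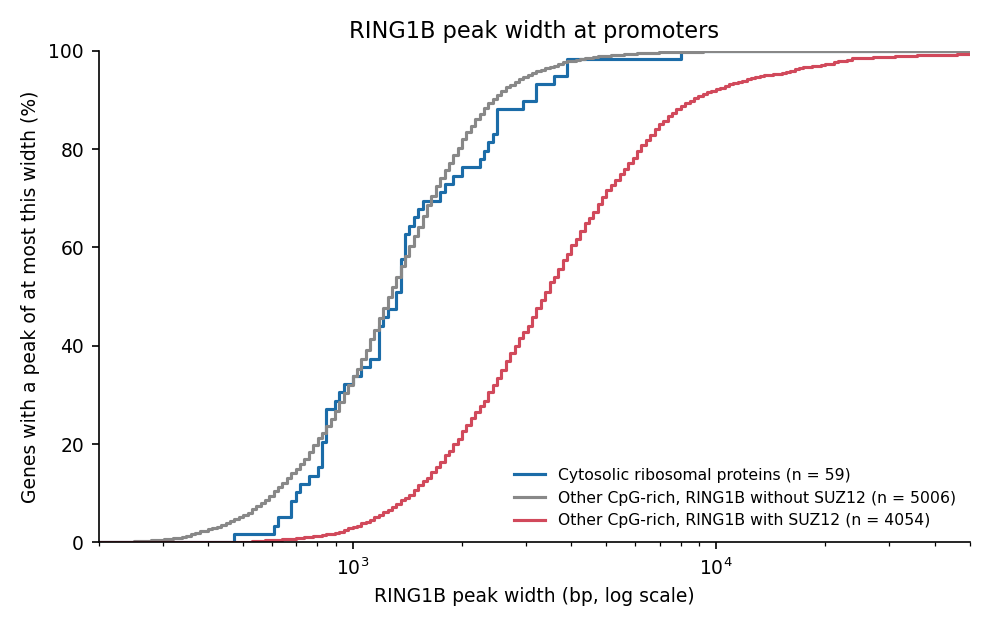
Cumulative share of genes by RING1B peak width (log scale) at the 59 ribosomal protein genes, at 5006 other CpG-rich genes with RING1B and no SUZ12, and at 4054 other CpG-rich genes with both. The members' curve runs along that of the genes without SUZ12, with medians of 1315 and 1253 bp, and to the left of that of the genes with SUZ12, whose median was 3340 bp.

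The 5 narrowest peaks were at Rpl21 (468 bp), Rps14 (600 bp), Rpl5 (615 bp), Rpl27 (663 bp) and Rps23 (669 bp). Rps14 is the gene whose loss underlies the anemia of the 5q- syndrome, and Rpl5 encodes a protein that binds the 5S rRNA. At Rpl21 and Rpl27 the peak began downstream of the annotated TSS, at +28 bp and at +109 bp, and ended at +495 bp and +771 bp. These were the only 2 of the 59 members whose reference TSS lay outside every RING1B peak.

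Several of the widest peaks also held the TSS of another gene. The peak at Rps15, whose protein lies near the decoding center, was 7960 bp wide (chr10:80292326-80300285) and ran from -105 to +7854 bp of the Rps15 TSS over the TSS of Apc2, a relative of the tumor suppressor Apc. Rpl13a had 2 peaks in its window, and the one over its own TSS was 2096 bp wide, from -828 to +1267 bp. Rpl7 had a peak of 3556 bp that also held the TSS of Rdh10, a retinol dehydrogenase gene, and Rpl36 had one of 3148 bp, from -1244 to +1903 bp, in which no other gene started. Rpl38, whose loss alters the axial skeleton in mice, had a peak of 3142 bp from -1660 to +1481 bp. Rpl35 was the other member with 2 peaks, one of 1525 bp over its TSS, from -740 to +784 bp, and one of 1763 bp that held the Arpc5l TSS. In all, the peaks at 13 of the 59 members also held the TSS of another gene (22.0%), against 23.3% of all RING1B-bound genes and 28.8% of other CpG-rich genes with RING1B and no SUZ12, and 60 distinct RING1B peaks served the 59 members.

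**Figure D3:**
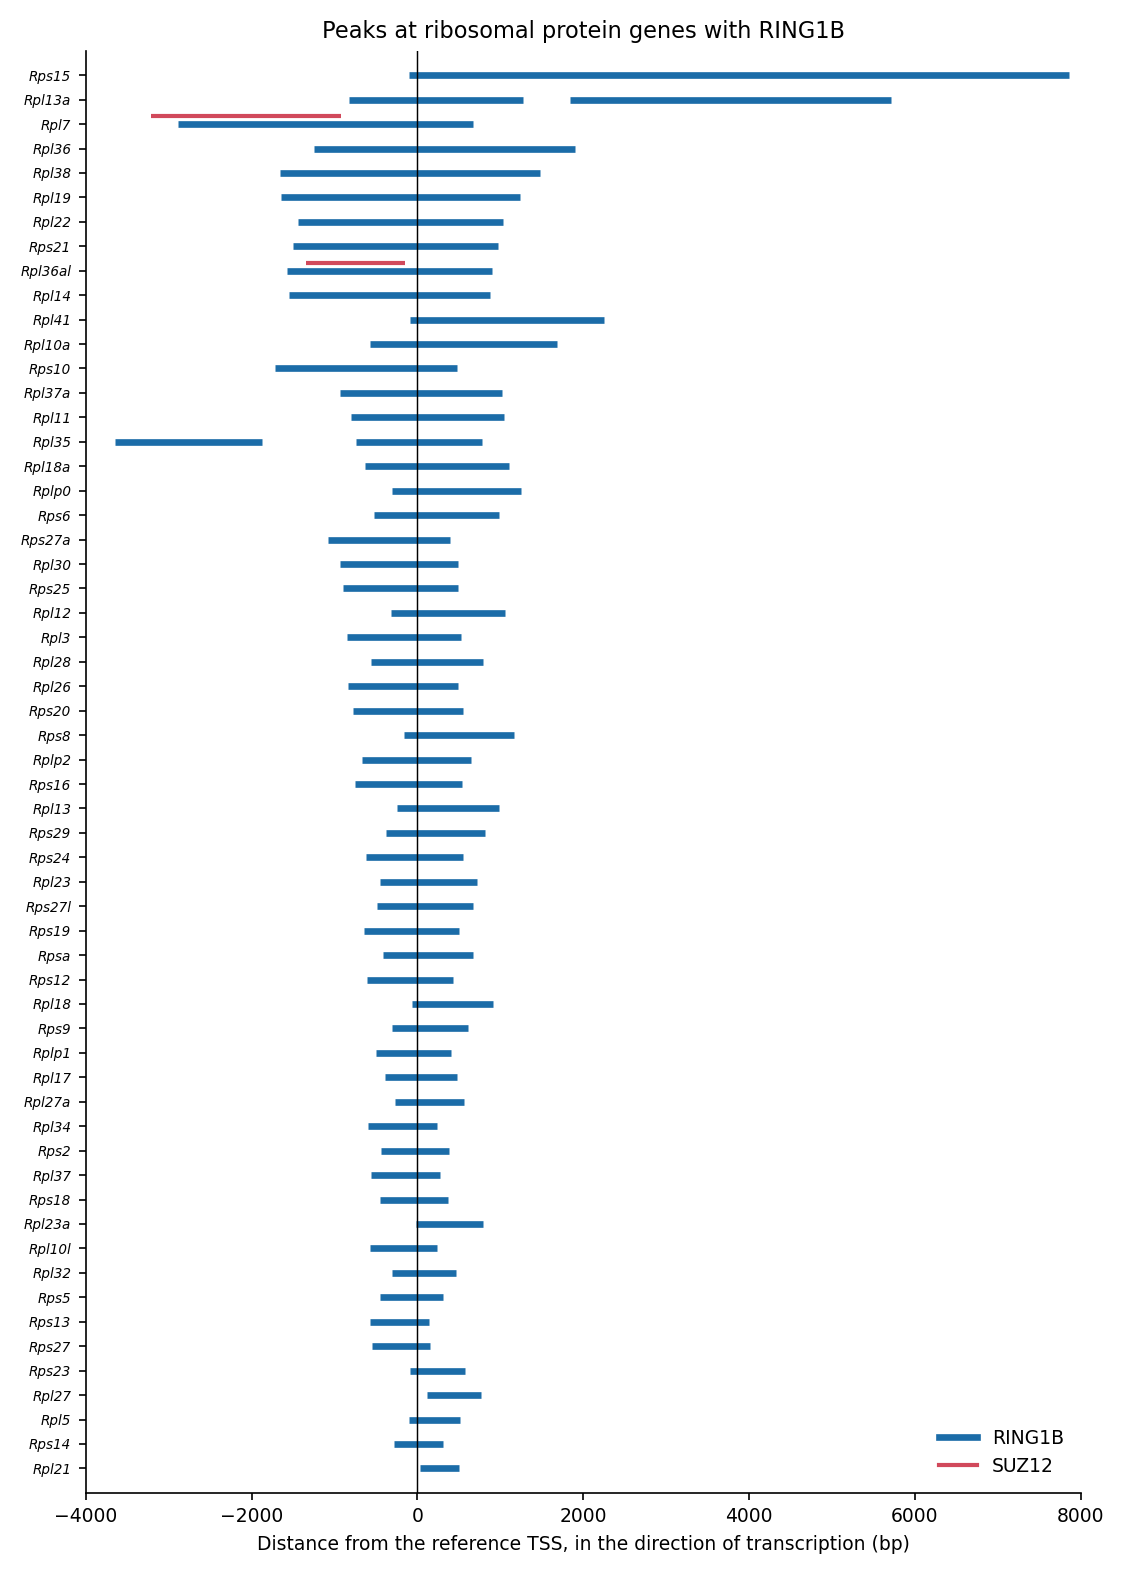
RING1B and SUZ12 peaks at 58 of the 59 ribosomal protein genes with RING1B, drawn as bars by distance from the reference TSS in the direction of transcription and ordered by the width of the widest RING1B peak. A RING1B bar crosses the TSS at 56 of the 58 genes drawn, and SUZ12 appears at Rpl7 and Rpl36al only, upstream of the TSS.

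The reference TSS lay inside a RING1B peak at 57 of the 91 members (62.6%), against a background of 52.6% of all protein-coding genes. Among CpG-rich promoters the order was reversed, with 71.4% of members and 84.8% of other genes. No interval was computed for these shares. The share of members covered was highest at +100 bp, at 63.7%, and was 12.1% at -1000 bp and 16.5% at +1000 bp. At other CpG-rich genes the share was also highest at +100 bp, at 86.1%, but it was still 36.4% at -1000 bp and 42.7% at +1000 bp. Those genes include the wide peaks with SUZ12. Among RING1B-bound members alone the share was 18.6% at -1000 bp and 25.4% at +1000 bp. At other CpG-rich genes with RING1B and no SUZ12 it was similar, at 21.4% and 20.9%. The midpoint of the members' peaks lay at a median of -17 bp from the TSS, downstream of it at 29 of 59 genes (49.2%). At other CpG-rich genes with RING1B and no SUZ12 the median was +59.5 bp, with 57.6% downstream. Within the ribosome, the midpoint was downstream at 20 of 33 RING1B-bound genes of the 60S subunit (60.6%, 43.7 to 75.3%, median +112 bp) and at 8 of 23 of the 40S subunit (34.8%, 18.8 to 55.1%, median -69.0 bp), and these intervals overlap.

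**Figure D4:**
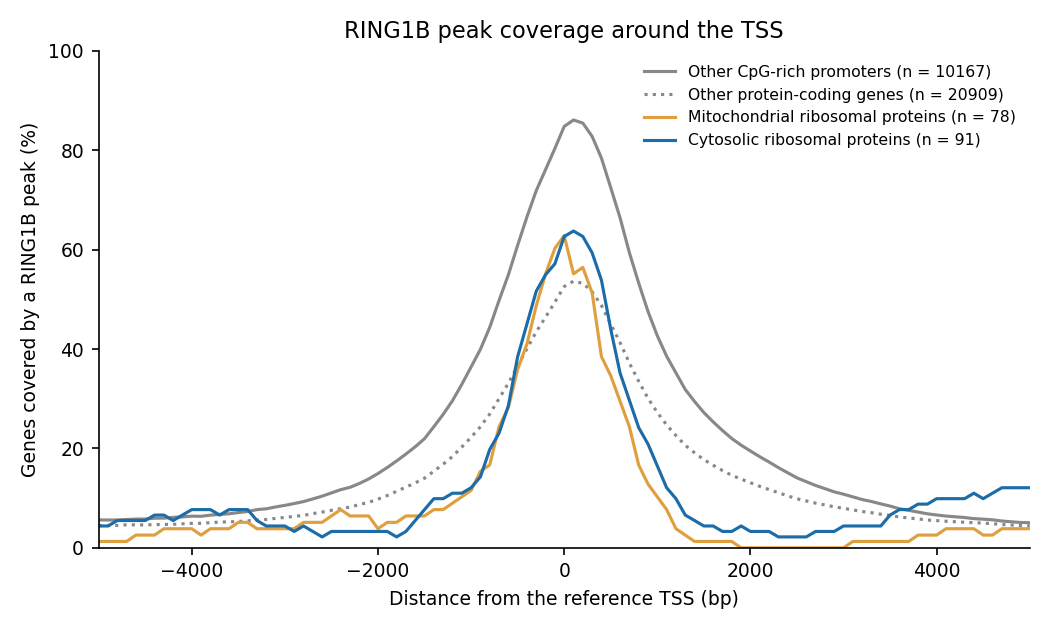
Share of genes covered by a RING1B peak at each distance from the reference TSS, in steps of 100 bp, for cytosolic and mitochondrial ribosomal protein genes, other CpG-rich promoters and other protein-coding genes. The members' curve peaks at 63.7% at +100 bp, against 86.1% for other CpG-rich promoters, and at +5000 bp it stands at 12.1%, against 5.05%.

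The genes of the ribosomal stalk, the lateral arm that recruits translation GTPases, all had RING1B over the TSS. Rplp0, the stalk base, had a peak of 1550 bp from -305 to +1244 bp. Rplp1 had one of 905 bp from -501 to +403 bp, and Rplp2 one of 1315 bp from -674 to +640 bp. Their CpG ratios, 0.896, 1.01 and 0.828, lay above the members' median of 0.806, and Rplp1 had the highest ratio of all core members.

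Further members with disease or signaling roles also had a RING1B peak over the TSS. Rpl11, whose protein joins that of Rpl5 in a complex that can inhibit MDM2, had a peak of 1853 bp from -803 to +1049 bp. Rps19, the gene most often mutated in Diamond-Blackfan anemia, had one of 1151 bp from -644 to +506 bp. Rpsa, the small-subunit protein also known as the laminin receptor, had one of 1089 bp from -413 to +675 bp. Rps27a encodes a ribosomal protein fused to ubiquitin, and its peak of 1472 bp from -1075 to +396 bp also held the Clhc1 TSS. None of these genes had a SUZ12 or PCGF2 peak. Rps6, the substrate of S6 kinase, had a peak of 1509 bp from -527 to +981 bp, and Rpl3, near the peptidyl transferase center, one of 1375 bp from -853 to +521 bp.

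At the 3 members with SUZ12 the peak lay to one side of the TSS, and no member TSS was inside a SUZ12 peak. At Rpl7 the SUZ12 peak (chr1:16105359-16107653, 2295 bp) lay from -3220 to -926 bp of the TSS and held the TSS of Rdh10. At Rpl36al, a paralog of Rpl36a, a SUZ12 peak of 1192 bp (chr12:69184219-69185410) lay from -1343 to -152 bp of the TSS, and the neighboring Mgat2 TSS lay in the same RING1B peak of 2473 bp. At Rps27rt, a retrogene of Rps27, a SUZ12 peak of 3069 bp (chr9:114977753-114980821) lay from +1918 to +4986 bp of the TSS and held the TSS of Osbpl10, and the window held no RING1B peak. Without the 18 members whose window held another gene's TSS, 1 of 73 members had SUZ12 (1.37%) and 48 of 73 had RING1B (65.8%). Of the 91 members, 15 lay within 10 kb of a SUZ12 peak, against 30.4% of all genes, and 3 lay within 10 kb of a PCGF2 peak, against 15.9%.

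The 21 core members without RING1B were not all poor in CpG. For the 60S subunit they were Rpl4, Rpl6, Rpl7a, Rpl8, Rpl9, Rpl10, Rpl15, Rpl24, Rpl29, Rpl31, Rpl35a, Rpl36a and Rpl39. For the 40S subunit they included Rps3, Rps3a1, Rps4x, Rps7, Rps15a, Rps26 and Rps28. They include genes for proteins at well-known sites of the ribosome, such as Rpl4 and Rpl39 at the exit tunnel, Rpl10 near the transfer RNA site and Rps3 at the mRNA entry. The list also holds Diamond-Blackfan anemia genes, among them Rpl35a, Rps7 and Rps26. Of the 21, 17 had a CpG-rich promoter, and the highest ratios were 0.994 at Rps3a1, then that of Rps26, 0.940 at Rpl9 and 0.919 at Rpl31. The nearest RING1B peak lay at a median of 12.8 kb from these 21 genes, with the smallest distance, 4.37 kb, at Rps28, and it was over 10 kb away at 13 of them.

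The median CpG ratio was lower at core members without RING1B than at those with it, but the values overlapped. The median was 0.830 at the 56 core members with RING1B, where ratios ranged from 0.634 to 1.01. At the 21 without it the median was 0.762, with a range of 0.519 to 0.994. No interval was computed for these medians. The group without RING1B holds all 4 X-linked core members, whose ratios, from 0.519 to 0.750, lie below its median. Medians for autosomal members alone were not taken, so how much of the gap comes from the X chromosome was not tested. None of the 10 members with a ratio below 0.6 had RING1B. Those 10 were the core genes Rpl39 and Rps4x, the paralogs Rpl3l, Rpl37rt, Rpl39l and Rps27rt, and Rpl31-ps12, Rpl32l, Rpl34-ps1 and Rps23rg1. Other protein-coding genes had RING1B at 68.6% for ratios between 0.4 and 0.6, and at 21.5% for ratios between 0.2 and 0.4.

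**Figure D5:**
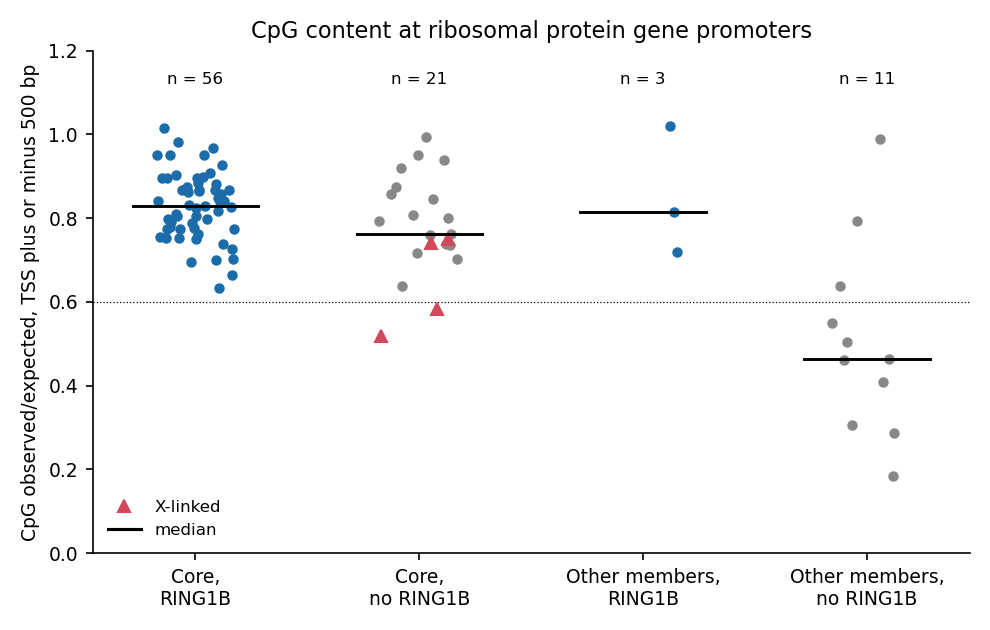
CpG observed/expected ratio within 500 bp of the TSS for core and other ribosomal protein genes with and without a RING1B peak, one point per gene, with the median as a bar, X-linked genes as triangles and the ratio of 0.6 as a dotted line. The core groups overlap, with medians of 0.830 and 0.762, and the 4 X-linked genes all lie in the group without RING1B.

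The X-linked core members Rpl10, Rpl36a, Rpl39 and Rps4x all lacked RING1B. Their CpG ratios were 0.750, 0.741, 0.582 and 0.519, and only Rpl36a met both limits for a CpG-rich promoter. Other X-linked genes had RING1B at 22.8%, against 58.4% of all protein-coding genes. Other CpG-rich X-linked genes had it at 51.8%, against 89.1% of other CpG-rich genes on any chromosome. Per the study's methods the ESCs were male, and whether the X copy number affects the peak calls was not tested. On the autosomes 56 of 73 core members (76.7%, 65.8 to 84.9%) had RING1B. The extremes among the autosomes with at least 4 members were chromosomes 11 and 4, where all 7 and all 5 members had RING1B, and chromosome 16, where 0 of 4 had it. Other genes on these chromosomes had RING1B at 68.9%, 60.8% and 59.5%. Of the members on chromosome 16, Rpl24 and Rpl35a are core genes.

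The paralogs and the other matches of the rule mostly lacked RING1B. Rpl10l, a retrogene expressed in testis, had a RING1B peak of 808 bp from -576 to +231 bp, and Rps27l, a paralog of Rps27 induced by p53, had one of 1159 bp from -489 to +669 bp. With Rpl36al these were the 3 with RING1B. No RING1B peak was found at Rpl3l, the muscle paralog of Rpl3, at Rpl39l, the testis paralog of Rpl39, or at Rpl22l1, Rpl7l1, Rpl37rt and Rps27rt. Rpl22l1 lacked RING1B with a CpG ratio of 0.990, whereas Rpl3l had the lowest ratio of all members, 0.184. Rps19bp1, a gene for a protein that binds the Rps19 protein rather than a ribosomal protein, also lacked RING1B, with a ratio of 0.792.

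Pyrimidine runs were frequent at the members' start sites. A run of at least 5 pyrimidines starting at the first transcribed base was found at 19 of the 91 members (20.9%), against 3.75% of other protein-coding genes and 2.56% of mitochondrial ribosomal protein genes. It was at 13 of the 59 members with RING1B (22.0%) and at 6 of the 32 without (18.8%). The 5 core members with the longest runs are printed below from 20 bases before the TSS, with the run in capitals (RefSeq, GRCm38.p6).
Rpl27a (chr7:109519175-109519214, plus strand): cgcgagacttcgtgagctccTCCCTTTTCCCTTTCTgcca
Rpl15 (chr14:18270967-18271006, minus strand): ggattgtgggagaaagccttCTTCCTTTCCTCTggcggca
Rpl35 (chr2:39005112-39005151, minus strand): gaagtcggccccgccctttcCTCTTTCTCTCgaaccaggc
Rpl32 (chr6:115808724-115808763, minus strand): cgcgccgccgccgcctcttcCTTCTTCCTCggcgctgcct
Rps10 (chr17:27635225-27635264, minus strand): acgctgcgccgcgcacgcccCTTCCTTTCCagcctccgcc
Of these 5 genes, Rpl15 lacked RING1B and the other 4 had it. Annotated starts may differ by a few bases from those used, so the longest run within 30 bases on either side of the TSS was also taken. It was at least 8 bases long at 47 members (51.6%) and at 22.4% of other protein-coding genes, and among core members at 53.6% of those with RING1B and 52.4% of those without.

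Motifs were searched on both strands from 250 bases before to 50 bases after the TSS. The ETS core CCGGAAG was at 36.3% of members, against 12.2% of all protein-coding promoters, and the palindrome CTCGCGAG at 9 members (9.89%), against 1.31%. Among CpG-rich promoters alone both kept this order, with CCGGAAG at 37.7% of members and 19.7% of other genes and the palindrome at 11.7% and 2.38%. CCGGAAG was at 38.5% of mitochondrial ribosomal protein, 40.9% of ribosome biogenesis, 37.5% of proteasome and 27.1% of translation factor genes. In the same order the palindrome was at 2.56%, 2.15%, 5.00% and 0%. The YY1 core AAGATGGC was at 6.59% of members, against 3.25% of all promoters, and at 6.49% against 5.01% among CpG-rich ones. In the 4 lists just named, the YY1 core was at 16.7%, 4.30%, 12.5% and 8.57%. For the GC and TATA boxes the values depended on the promoters compared. The GC box CCGCCC was at 58.2% of members, against 49.2% of all promoters, but among CpG-rich promoters at 63.6% of members and 75.2% of other genes. The TATA box TATAAA was at 13.2% of members, against 12.8% of all promoters, and among CpG-rich promoters at 11.7% against 5.61%. The E-box CACGTG was at 7.69%, against 8.08%, and among CpG-rich promoters at 9.09% against 11.1%. No motif searched contains another, although neighboring matches can share bases. By RING1B, CCGGAAG was at 39.0% of members with a peak and 31.2% of those without, and the GC box at 62.7% and 50.0%. Among core members alone these gaps were smaller, with CCGGAAG at 39.3% and 38.1% and the GC box at 60.7% and 57.1%. The TATA box was at 5 members with a peak (8.47%) and 7 without (21.9%), and the YY1 core at 3 with (5.08%) and 3 without (9.38%). The E-box was at 7 members, among them Rpl14, Rpl19, Rpl23, Rpl34 and Rps20, all of which had RING1B. All 7 are core members, of which 72.7% had RING1B whatever the motif. At other CpG-rich genes the E-box was at 12.5% of those with RING1B and no SUZ12. It was at 10.4% of those with both and at 7.59% of those without RING1B. The motif counts are matches of letters in a window and were not tested as binding sites. The palindrome is shown in capitals for 4 members, of which Rps28 lacked RING1B (RefSeq, GRCm38.p6).
Rps6 (chr4:86857400-86857427, minus strand): gccggctgttCTCGCGAGaacttagagc
Rps19 (chr7:24884556-24884583, plus strand): tttagccgctCTCGCGAGcactccgaaa
Rpl26 (chr11:68901531-68901558, plus strand): ctccgagactCTCGCGAGatctcgcggc
Rps28 (chr17:33824545-33824572, minus strand): cgcgtgcggtCTCGCGAGagcgaaagtg
Of the 9 members with the palindrome, 7 had RING1B, which is 11.9% of the 59 members with a peak, and 2 lacked it, which is 6.25% of the 32 without. Among core members alone the palindrome was at 12.5% of those with a peak and 9.52% of those without.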

How the data were processed

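Per the study's methods, the authors mapped read pairs to a combined mouse (mm10) and human (hg19) genome by Bowtie 2. Pairs with a unique position were retained, Sambamba took out duplicates, and MACS2 in broad mode gave the peaks relative to Input, outside a custom blacklist. The deposited files are BED lists of peak positions and carry no further unit. For RING1B and SUZ12, peaks were called on merged replicates of untreated PRC1CPM and PRC1CKO cells and kept when found in both. RING1B peaks without a significant loss after tamoxifen in PRC1CKO cells were removed. The RING1B data of PRC1CKO cells were not analysed here. PCGF2 peaks had to be found in every untreated PRC1CPM replicate. Because multiply mapping reads were dropped, sequence shared with processed pseudogenes may be under-represented, and this was not tested.

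Peaks were intersected (at least 1 bp) with windows of 2500 bp on either side of each curated TSS in RefSeq annotation release 108.20200622 of GRCm38.p6, with Python 3.11.15, pandas 2.3.3 and pysam 0.24.0. No peak ran past a chromosome end. The reference TSS was that of the RefSeq Select transcript, widths were those of the widest peak, and the interval search was checked on simulated data. Positions are 1-based. An entry of RefSeq's promoter table existed for 70 of the 91 members, and 69 of their promoters were identical to it in full. Genes were named by rule: members with SUZ12, without RING1B, with the 5 widest or narrowest RING1B peaks, with a TSS outside their widest RING1B peak or with more than 1 peak, and a fixed set of stalk, disease and paralog genes. Other names (Rpl3, Rpl38, Rps6, and those listed for a motif or printed for a sequence) were chosen after their values were seen. The members and gene lists were chosen with earlier results of these data known. Some genes that the rule names are counted but not reported by name here. Groups came from the sample labels, and no depth or replicate value could be used.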

Additional observations from a re-analysis of the deposited data

How the results depend on the processing

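Under 54 alternatives for the members' values, 47 stayed within the 95% interval of the reported value and 7 did not. The 47 include PCGF2 alternatives that narrow the window or drop peaks or members. These could only stay at 0, so the count is not a measure of stability. Dropping narrow peaks lowered the members' RING1B share more than that of all genes: with peaks of at least 1 kb it was 42.9%, against 45.6% of all protein-coding genes, and without the narrowest 25% of the list 46.2%, against 48.5%, so the members then stood below the background rather than above it. With peaks of at least 1 kb the median width was 1509 bp. The SUZ12 share fell to 1.10% within 500 bp of the TSS and to 0% at the TSS base, where 26.0% and 20.8% of all genes had SUZ12. The median CpG ratio was 0.889 within 250 bp and 0.678 within 1000 bp of the TSS. The share of all protein-coding genes with RING1B was 57.4% within 1000 bp, 57.0% within 500 bp, 53.9% at the TSS base, 60.2% within 5000 bp, 63.0% over the whole gene, 57.5% with the reference TSS alone, 59.5% with predicted transcripts, 55.7% with at least 500 bp shared and 56.2% by peak midpoint, and the members' share lay above it in each of these, from 62.6% to 70.3%. The median midpoint moved between -31.0 and +43.5 bp, within its interval. PCGF2 reached 2 members only within 5000 bp (2.20%) and 1 over the whole gene (1.10%). No paired analysis was possible because replicates were merged or intersected before deposit, and for the same reason no replicate could be left out. The lists give no depth, so the detection limit is unknown.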

Other observations

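Beyond the promoter window, 22 of the 91 members (24.2%) had a further RING1B peak between 2500 and 8000 bp downstream of the TSS, against 5.57% of other protein-coding genes, and at 16 of the 22 (72.7%) that peak held the TSS of another gene, against 42.1% of the other genes with such a peak. Of the mitochondrial ribosomal protein genes, 15.4% had such a downstream peak, and 91.7% of those peaks held another gene's TSS. Upstream the share was 17.6% of members, against 8.46% of other protein-coding genes and 8.97% of mitochondrial ribosomal protein genes. The median gene length was 3175 bp for the members and 17903 bp for other genes, and this length stands beside the downstream count without having been tested as its source.

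Fau, which encodes a ribosomal protein fused to a ubiquitin-like protein and falls outside the naming rule, had a RING1B peak of 511 bp from -276 to +234 bp of its TSS. It had no SUZ12 or PCGF2 peak.

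Mammalian genomes carry many processed pseudogenes of ribosomal protein genes, copies that arose from mRNA and therefore lack the promoter. This list was taken after the members' values were seen. Of 318 annotated pseudogenes whose symbol derives from a ribosomal protein gene, 20 (6.29%) had a RING1B peak within 2500 bp of the 5′ end and 6 had the 5′ end inside one. SUZ12 was near 4 and PCGF2 near 0. Their median CpG ratio was 0.363. Other protein-coding genes with ratios between 0.2 and 0.4 had RING1B at 21.5% and SUZ12 at 10.9%. The share at random genome positions was not computed, so the pseudogene counts are not read as a trait of these copies. The number of such pseudogenes per core gene had a median of 2 at members with RING1B and 1 at members without it, with ranges of 0 to 23 in both and means of 4.09 and 4.10.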
